A study of Homo sapiens with 76 samples.

Results

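Deoxynucleotide supply genes are described here in 76 single HEK293 cells, a long-used line derived from human embryonic kidney. The 7 members, RRM1, RRM2, TYMS, DUT, TK1, DTYMK and DCTPP1, were chosen by name, and all 7 were present among the 17513 gene rows of the count table. The cells were grown in DMEM with glutamine and fetal calf serum, with no treatment and no compared group, and the labels name no separate cultures, so the cells count as 1 sample. Each was lysed on a microfluidic chip with spike-in RNA (20000 molecules per cell) and read at the 5' ends of its polyadenylated transcripts with unique molecular identifiers (UMIs), tags that let each captured molecule be counted once. Every SD below is a spread over these 76 cells, no comparison was tested, and correlations across cells are given without p-values.

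A cell makes DNA only from the deoxynucleotides it holds, and it makes most of them anew each time it copies its genome. Ribonucleotide reductase, built from a large catalytic subunit (RRM1) and a small radical-bearing subunit (RRM2), turns ribonucleotides into deoxyribonucleotides. Thymidylate synthase (TYMS) makes dTMP from dUMP, dUTPase (DUT) supplies that dUMP while destroying dUTP, thymidine kinase 1 (TK1) recovers thymidine in the cytosol, thymidylate kinase (DTYMK) carries dTMP on to dTDP, and DCTPP1 breaks down dCTP and damaged cytosine nucleotides. Several of these genes are known targets of E2F factors and are transcribed most around S phase, and RRM2 and TK1 proteins are destroyed at the end of the cycle.

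A cell gave between 7305 and 43392 endogenous UMIs, with a median of 20966, and between 1390 and 3132 spike-in UMIs. The 7 genes together gave 2632 UMIs over all cells, so single values are small and much of their spread is counting error. As background, the line is known to carry both epithelial and neuronal transcripts. KRT18, an epithelial keratin gene, was seen in 45 cells and KRT8 in 19, while KRT19 and EPCAM gave 1 UMI each. Of the neuronal genes, NEFM was seen in 49 cells and UCHL1 in 70, and MAP2 was at 0. The fibroblast genes gave 15 UMIs in all and the blood gene HBA1 gave 5. With the share of G2 and M phase genes used below, KRT18 had a rho of -0.35, NEFM -0.23 and UCHL1 0.26, and with the summed share of the 7 they had 0.06, -0.11 and 0.02. Of the kidney epithelial, neuronal, blood and fibroblast markers looked for, 3, 2, 6 and 4 were not analysed here.

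RefSeq sequences upstream of listed starts (GRCh38.p14, a later build than the hg19 named for these data) are given for the reductase subunits and thymidylate synthase. Parts of them overlap annotated exons. They are printed because RRM2 and TYMS stood highest with S phase below, and RRM1 is the partner subunit of RRM2. Capitals mark matches, on either strand, to an E2F word (spelled TTCCCGC, or with other middle letters as TTCGCGC, or in further spellings as TTGCCGC, or lastly also as TTGGCGC), to CCAAT, the box bound by NF-Y, or to TTTGAA, the core of the cell cycle element called CHR. The plus strand is printed, from chr11:4094455-4094684 for RRM1, chr2:10122619-10122738 for RRM2 and chr18:657404-657633 for TYMS. Where a gene had several starts, the window with most matches was taken after the matches were counted.
RRM1: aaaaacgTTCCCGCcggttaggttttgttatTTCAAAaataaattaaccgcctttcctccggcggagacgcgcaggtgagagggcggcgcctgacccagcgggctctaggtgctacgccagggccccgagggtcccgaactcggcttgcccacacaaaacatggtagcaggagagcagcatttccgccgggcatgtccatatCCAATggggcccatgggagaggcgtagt
RRM2: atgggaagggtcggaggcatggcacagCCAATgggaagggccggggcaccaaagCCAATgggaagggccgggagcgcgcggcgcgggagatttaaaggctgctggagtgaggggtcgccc
TYMS: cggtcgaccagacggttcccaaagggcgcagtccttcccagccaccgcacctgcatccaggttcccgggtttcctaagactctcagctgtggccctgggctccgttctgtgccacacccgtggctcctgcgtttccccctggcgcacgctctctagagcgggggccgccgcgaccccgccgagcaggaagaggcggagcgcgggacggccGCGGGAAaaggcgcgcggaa

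The RRM1 stretch lies outside annotated exons in GENCODE 29 and holds 1 match of each kind. The RRM2 stretch ends at the base before the start and lies within the exon of a longer RRM2 transcript. Only 9 of its bases are annotated as untranslated, so the rest may be coding sequence of that transcript. The stretch shows 2 CCAAT boxes in the same surrounding letters, which are not read here as promoter elements. A further CCAAT is cut by its left edge and left unmarked. The other RRM2 window searched, chr2:10122318-10122567, is not printed and held 1 E2F word and 1 CCAAT box. The last 30 bases of the TYMS stretch are annotated 5' untranslated sequence and hold its E2F word. Over the 250 bases before each start, 12 windows of the 7 genes were searched and 6 genes had a match: 5 had an E2F word, 4 a CCAAT box and 2 a CHR core in at least 1 window. Counted by window, as the background is, these were 5, 5 and 2 of the 12, some of which overlap. DCTPP1 had none. Of the 12 windows, 11 overlap annotated untranslated sequence, over 196 bases for DCTPP1, 176 for DTYMK and 240 for the unprinted RRM2 window. A match therefore need not lie outside transcribed sequence. Among all 35116 windows, 10.9% held an E2F word, 32.01% a CCAAT box and 13.3% a CHR core. A match describes letters only, and binding was not measured here.

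The most abundant of the 7 was DUT, followed closely by DCTPP1. A UMI count at the 5' end counts a molecule once whatever its length, but only where the cDNA reached that end, and the effect of transcript length was not tested. DUT ranged from 0 to 31 UMIs per cell with a median of 8 (8.59 ± 6.55, SD, n = 76 cells). DCTPP1 ranged from 0 to 19 with a median of 7 (7.68 ± 4.79). Each of these genes was seen in 75 of 76 cells (98.7%, exact Clopper-Pearson 95% interval 92.9% to 99.97%). Counts of at least 10 UMIs were common for both, in 25 cells for DUT and 24 for DCTPP1.

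TYMS, the next in order, ranged from 0 to 25 UMIs with a median of 4 (5.039 ± 4.796). It was seen in 66 cells (86.8%, interval 77.1% to 93.5%) and reached 10 UMIs in 10 of them. The high end was thin: the cell numbered 33 in the labels held 25 UMIs and the next highest cell 20. DUT gave more UMIs than TYMS, its partner in dTMP supply, with 63.03% of the 1036 UMIs of both (interval 60.01% to 65.98%, counting error only).

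The reductase subunit genes were expressed at a like, lower level. RRM1 ranged from 0 to 13 UMIs with a median of 2 (3.34 ± 3.05) and was seen in 62 cells (81.6%, interval 71.03% to 89.55%). RRM2 ranged from 0 to 17 with a median of 3 (3.91 ± 3.59) and was seen in 66 cells, as TYMS was. Few cells were high for either: 4 cells reached 10 UMIs of RRM1 and 7 of RRM2. RRM2 made up 53.9% of the 551 UMIs of both subunits (interval 49.6% to 58.1%), which includes an even split.

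Cell by cell the split between the subunits varied. RRM2 exceeded RRM1 in 38 cells, RRM1 exceeded RRM2 in 27, and they were equal in 11. Both were seen in 56 cells, RRM2 alone in 10, RRM1 alone in 6 and neither in 4. In the 45 cells with at least 5 UMIs of both together, the RRM2 share ran from 14.3% to 100% with a median of 53.3% (53.8% ± 20.2). The variance (squared spread) of the split over the 72 cells with either was 1.55 times what binomial counting alone gives. Single spike-in RNAs, added equally to every cell, had a median variance of 1.53 times that of counting. That is a variance of single RNAs and not of a split between 2, so whether 1.55 exceeds technical noise was not tested. RRM2B, the p53-inducible small subunit that can replace RRM2 outside S phase, gave 22 UMIs in 17 cells, so RRM2 made up 93.1% of small subunit UMIs (interval 89.7% to 95.6%).

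The thymidine genes TK1 and DTYMK were the least abundant. TK1 ranged from 0 to 15 UMIs with a median of 2.5 (3.14 ± 3.10), and DTYMK from 0 to 11 with a median of 2 (2.92 ± 2.52). Each was seen in 64 cells (84.2%, interval 74.04% to 91.57%). TK1 reached 10 UMIs in 4 cells and DTYMK in 1. Of the thymidine kinase genes, cytosolic TK1 outweighed mitochondrial TK2 by 239 UMIs to 6, or 97.6% of the UMIs of both (interval 94.7% to 99.1%).

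**Figure D1:**
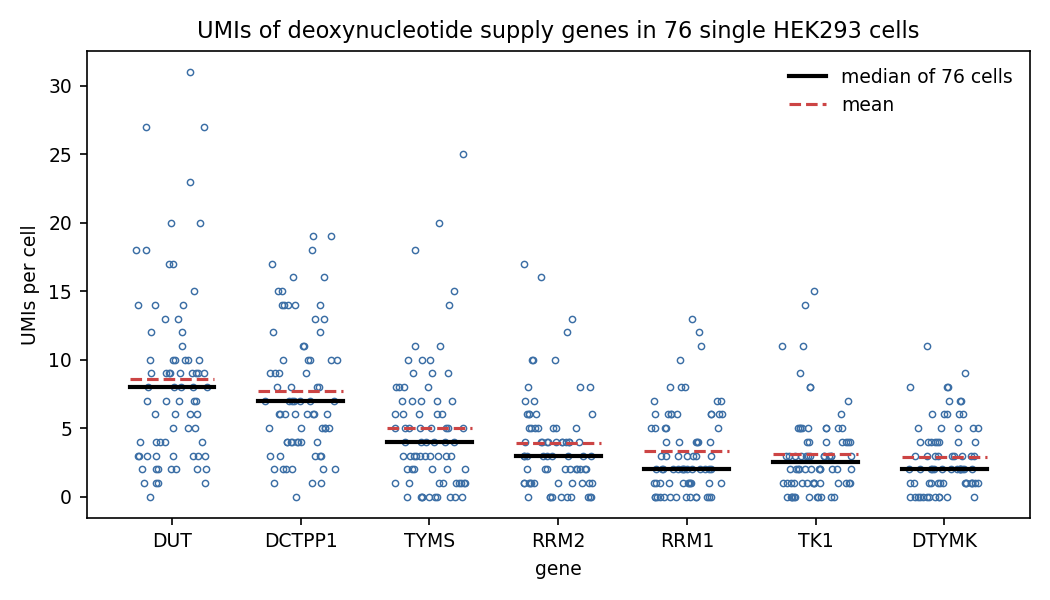
UMIs per cell (linear axis) of each of the 7 genes, 1 circle per cell with sideways scatter for visibility, black bars for the median and dashed red bars for the mean of 76 cells. DUT and DCTPP1 have medians of 8 and 7 UMIs, TYMS 4, and the other 4 genes 2 to 3, with the ranges of all 7 overlapping.

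As a share of a cell's endogenous UMIs the order was the same: DUT at 0.0374% ± 0.0231, DCTPP1 at 0.0360% ± 0.0212, TYMS at 0.0209% ± 0.0152, RRM2 at 0.0168% ± 0.0134, RRM1 at 0.0141% ± 0.0114, TK1 at 0.0139% ± 0.0113 and DTYMK at 0.0125% ± 0.00978. Between neighbours in this order, each mean difference was smaller than its own SD over cells, and some cells departed from every step. That SD is a spread of single cells and does not measure how firmly a mean difference is known. The widest step was from DCTPP1 to TYMS, with DCTPP1 higher in 56 of 76 cells and TYMS in 14. DUT and DCTPP1 could hardly be ordered, with DUT higher in 40 cells and DCTPP1 in 31. RRM1 and TK1 were closest in mean share, and TK1 and DTYMK split the cells most evenly, at 33 against 31.

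All 7 genes were seen in 42 of 76 cells, 6 of them in 19 cells, and fewer in 15, down to 2 genes in 1 cell. Depth enters such counts. With cells thinned to 10940 UMIs, which 71 cells could give, all 7 were seen in 21 cells and the median cell showed 6. At that depth RRM1 was seen in 64.8% of cells (interval 52.5% to 75.8%) and DUT and DCTPP1 each in 95.8%.

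The summed share of the 7 genes was 0.151% ± 0.0526, and single cells lay between 0.0571% and 0.286% around a median of 0.153%. The cell with the highest share, numbered 22 in the labels, held 78 UMIs of these genes among 27318, of which 27 were DUT, 16 RRM2, 16 DCTPP1, 10 TYMS, 5 RRM1, 3 DTYMK and 1 TK1. The cell with the lowest, numbered 89, held 7 among 12251, with none of RRM1 or TYMS. The top cell was thus not high for every gene, whereas the cell numbered 12, also among the highest in summed share, lay above the mean share for all 7. Scaled by the spike-ins, whose capture was 6.95% to 15.7% of the molecules stated, the median cell held an estimated 271 molecules of the 7 genes (66.9 to 983). Per gene the median estimate ran from 19.6 molecules for DTYMK to 65.7 for DUT. These estimates assume that cellular and spike-in RNA are captured equally.

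Spread between cells was highest for DUT. The Pearson dispersion compares a gene's squared deviations with the counts expected from each cell's total, and counting alone gives 1. It was 2.94 for DUT, 2.35 for TYMS, 2.32 for DCTPP1, 2.10 for RRM2, 1.93 for TK1, 1.72 for RRM1 and 1.41 for DTYMK. Spike-in RNAs, added equally to every cell, had dispersions up to 2.20 with a median of 1.53 (36 RNAs with a mean of at least 1 UMI). Theirs were taken against each cell's spike-in total, and those of genes against its endogenous total. DUT, TYMS and DCTPP1, 3 of the 7, lay above the highest spike-in, where 21.6% of all 2810 genes with a mean of at least 1 UMI did. Dispersion grows with abundance, so the nearer background is the 763 genes whose means lie within the range of the 7 (2.92 to 8.59 UMIs), of which 25.6% did. The 6 spike-ins in that range of means had dispersions from 1.23 to 1.97. With a mean of at least 3 UMIs asked of genes and spike-ins, the limit was 2.04. RRM2 then passed too, making 4 of 6 members, where 49.9% of 1096 genes did.

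DUT lay above 95.5% of those 763 genes and DTYMK above 10.2%. Counting alone would make up 33.97% of the variance of DUT, 70.7% of that of DTYMK and 42.6% to 58.1% of the others. The relative spread left after counting was 57.98% for TK1, 56.7% for TYMS, 52.4% for RRM2, 47.4% for DUT, 45.2% for RRM1, 36.5% for DCTPP1 and 35.6% for DTYMK (coefficients of variation, technical spread included). By this measure DUT was in the middle and TK1, not above the limit, was highest. The calls above the limit depended on depth and on single cells: with cells thinned to 10940 UMIs 0 of the 7 passed (13.8% of 1576 genes did), and without the cell of highest share for each gene DCTPP1 no longer did (2.05 against a limit of 2.08).

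**Figure D2:**
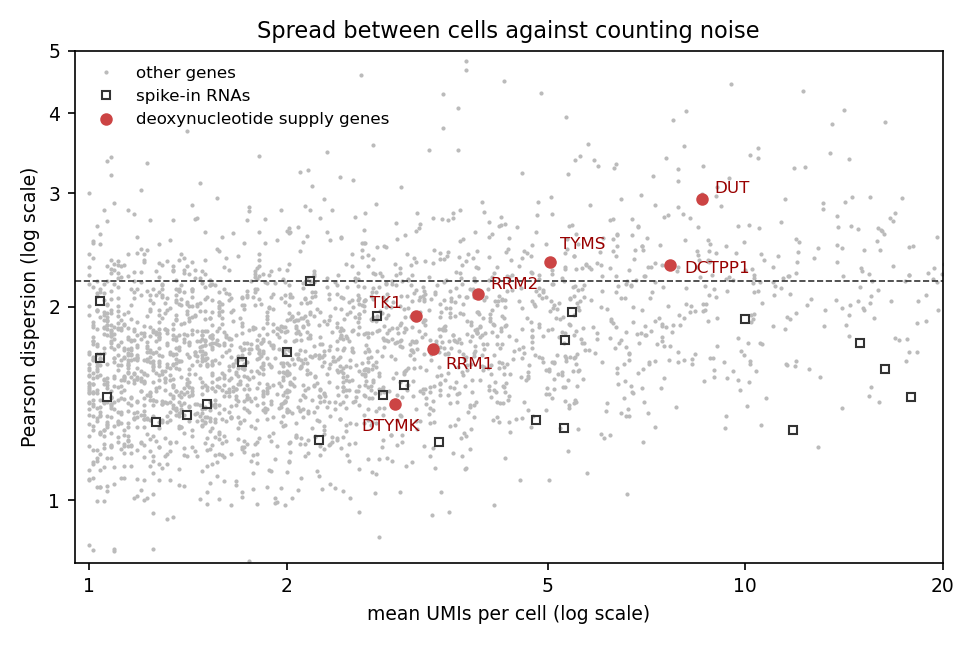
Pearson dispersion against mean UMIs per cell, both on log axes, for the 7 genes (red), other genes (grey) and spike-in RNAs (squares), with a dashed line at the highest spike-in (2.20). DUT, TYMS and DCTPP1 lie above the line and DTYMK lies among the spike-ins. Means above 20 UMIs and dispersions below 0.8 or above 5 are not shown, which leaves out 179 other genes and 13 spike-ins.

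RRM2, TYMS and DUT took a larger share of UMIs in cells with a larger S phase share, the percent of a cell's UMIs from 43 S phase genes, none of them among the 7. Spearman's rho over 76 cells was 0.42 for RRM2, 0.40 for TYMS, 0.32 for DUT, 0.29 for DCTPP1, 0.20 for TK1, 0.20 for RRM1 and 0.17 for DTYMK. At a rho of at least 0.3 stood 3 of the 7, against 4.74% of 2782 genes outside the list, and at -0.3 or below stood 0 of the 7 and 2.01% of genes. A rho above 0 was held by 7 of 7 and by 60.9% of those genes. The median was 0.29 for the 7 and 0.04 for all. RRM2 lay above 99.5% of genes, TYMS above 99.3% and DUT above 96.2%, while RRM1, TK1 and DTYMK lay between 79.6% and 84.6% and are too weak to read as relations in counts this sparse. Both measures of a cell come from 1 library and share its total as denominator.

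Without the 2 cells farthest from the median S phase share, rho was 0.39 for RRM2, 0.38 for TYMS and 0.31 for DUT. RRM2 and TYMS stayed above 0.3 under each of the 6 other scalings and measures tried. DUT was at 0.28 with ribosomal protein and mitochondrial genes left out of the totals, 0.29 by Pearson correlation of log values and 0.26 with the ribosomal protein share regressed out. DCTPP1, just under 0.3, moved to 0.24 with those genes left out, but to 0.35 with the ribosomal protein share regressed out and 0.32 when thinned. Scaled by spike-in UMIs, all 7 passed 0.3 (0.37 to 0.61) and so did 55.9% of all genes.

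For the share of 55 genes of G2 and M phase, DCTPP1 lay lowest of the 7. Its rho was -0.39, with 0.539% of 2783 genes below it, and it was the 1 member at or below -0.3, where 1.65% of genes lay. RRM1 was at 0.21, DUT at 0.08, DTYMK at 0.01, TYMS at -0.01, RRM2 at -0.05 and TK1 at -0.18, and 0 of the 7 reached 0.3 (2.30% of genes did). Above 0 lay 3 of the 7 and 58.6% of genes. Without the 2 cells farthest from the median G2 and M phase share, rho for DCTPP1 was -0.34, and thinned it was -0.30. The keratin gene KRT18 stood at -0.35 with the same share, and its part in the DCTPP1 value was not tested. Of 13 genes of origin licensing and the MCM helicase, 1 lay at or below -0.3, MCM7 at -0.42. Of 14 clamp and repair genes 0 did. The DCTPP1 share had a rho of -0.16 with a cell's endogenous UMIs, where the other members lay between 0.03 and 0.28. The part of depth in the DCTPP1 value was not tested beyond the thinning given. Scaled by spike-in UMIs the rho of DCTPP1 turned to 0.09, where the median over all genes was 0.31.

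**Figure D3:**
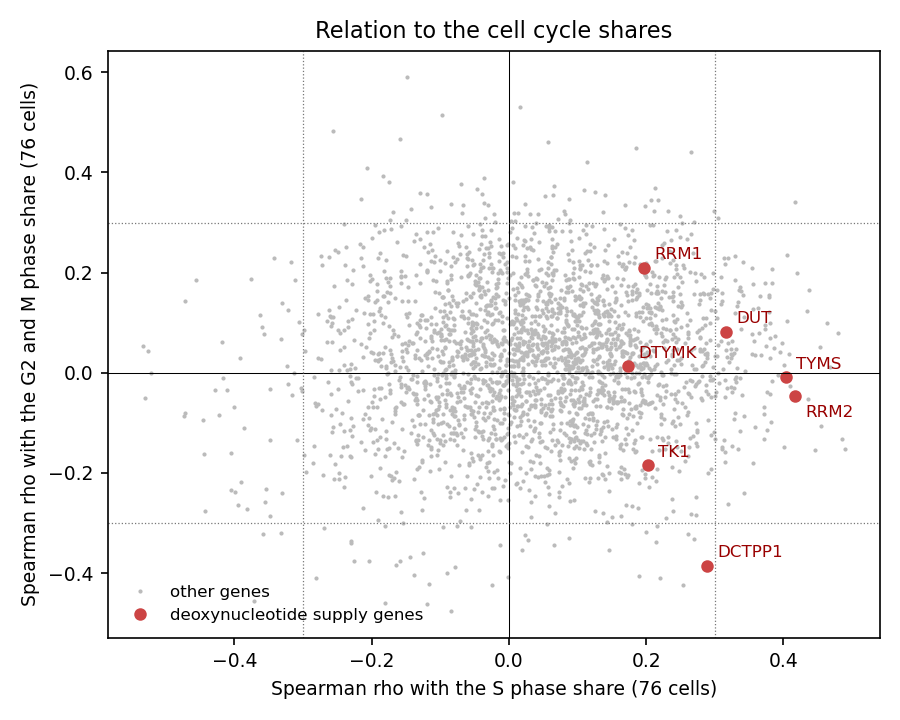
Spearman's rho of each gene's share with the S phase share (horizontal) and with that of G2 and M phase genes (vertical) over 76 cells, for the 7 genes (red) and genes outside both lists (grey), with dotted lines at -0.3 and 0.3. All 7 genes lie right of 0, RRM2 and TYMS farthest at 0.42 and 0.40, and DCTPP1 lies lowest at -0.39.

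HIST1H4C, a histone gene whose mRNA is made during replication, belonged to neither cycle list. The libraries read polyadenylated transcripts, and what part of the HIST1H4C mRNA they took in was not measured. Its share is therefore not read here as a measure of replication. No member reached a rho of 0.3 with the HIST1H4C share (0.427% of genes did) and 0 of the 7 reached -0.3 (1.57% of genes did). RRM2 was lowest at -0.29, a rho under which 2.24% of genes lay, and RRM1 highest at 0.20. Without the 2 cells farthest from the median histone share RRM2 stayed at -0.29, RRM1 was at 0.18 and TYMS highest at 0.21.

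Between the 7 genes themselves relations were weak. Over 21 pairs rho ran from -0.08 to 0.38 with a median of 0.12, against a median of 0.01 over all 3946645 gene pairs and -0.01 over pairs of spike-in RNAs. At least 0.3 was reached by 2 pairs, where 1.16% of all pairs did: TYMS with DUT at 0.38 and RRM1 with TK1 at 0.31. TYMS and DUT, enzymes of successive steps to dTMP, lay above 99.8% of all pairs and stayed between 0.33 and 0.40 in the 5 alternatives that kept endogenous totals, log values or ranks, and at 0.55 with spike-in scaling. RRM1 with TK1 was less steady: it passed 0.3 without shallow cells (0.36) and with spike-in scaling (0.49), and lay between 0.26 and 0.30 in the other 4 alternatives.

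The next pairs all involved TK1 or TYMS: TK1 with DTYMK at 0.28, TYMS with DCTPP1 at 0.28 and TK1 with DCTPP1 at 0.26. The partner subunits RRM1 and RRM2 were at 0.18, above 90.1% of all pairs, and at 0.09 when thinned. RRM2 and DUT, both related to the S phase share, were at -0.08 with each other. The ribosomal protein share, which had a rho of -0.54 with the S phase share, had a rho of -0.29 with RRM1, -0.24 with RRM2, -0.21 with DTYMK, -0.18 with TYMS, -0.18 with DUT, -0.14 with TK1 and 0.01 with DCTPP1. Its part in the relations was not tested beyond the regression given above.

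**Figure D4:**
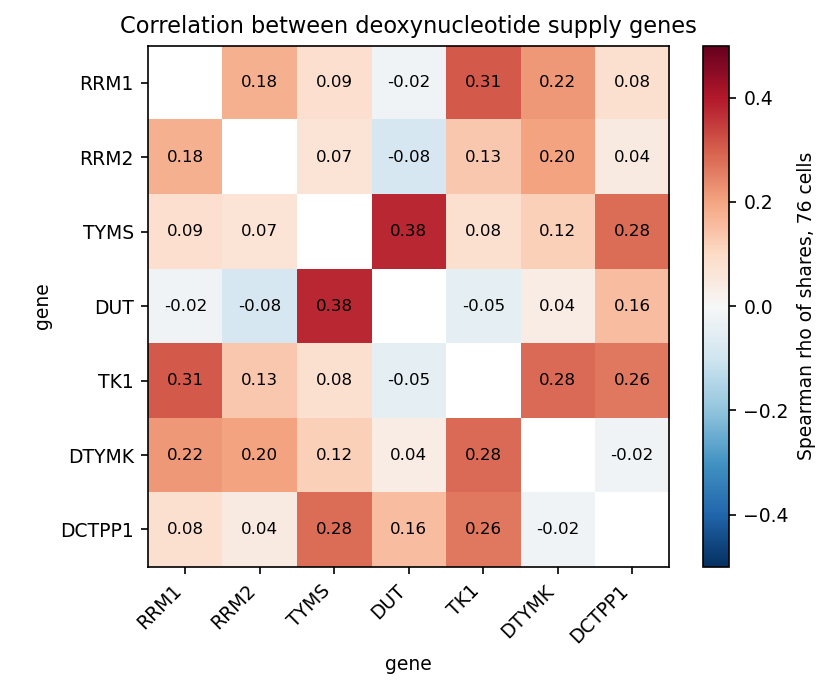
Spearman's rho between the shares of each pair of the 7 genes over 76 cells, in colour from blue (negative) to red (positive) and as printed values. TYMS with DUT (0.38) and RRM1 with TK1 (0.31) are the highest, and RRM2 with DUT (-0.08) is the lowest.

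Other replication genes give a scale for these values. The 14 genes of origin licensing and the MCM helicase took 0.217% ± 0.0720 of UMIs, led by GMNN (9.43 ± 5.63 UMIs), the inhibitor of licensing, and the helicase subunits MCM7 (8.76 ± 6.63) and MCM2 (6.28 ± 5.20). Among the 13 of them at 1 UMI per cell or more, the median pair rho was 0.13. The 14 clamp and repair genes took 0.220% ± 0.0675, led by RPA2 (11.9 ± 7.95) and RPA3 (9.36 ± 6.32), of the single-strand binding complex, and the sliding clamp PCNA (6.36 ± 5.64), with a median pair rho of 0.09. The means of DUT and DCTPP1 lay between those of GMNN and MCM2. Above the highest spike-in dispersion lay 4 of the 13 licensing genes and 5 of the 14 clamp and repair genes, beside 21.6% of all genes. Several licensing and clamp genes are also in the S phase list. With the licensing share, RRM2 had a rho of 0.41, DCTPP1 0.35 and TYMS 0.32 (at least 0.3 in 2.65% of genes), and 0 of the 7 lay at -0.3 or below (1.54% of genes). With the clamp and repair share, TYMS had 0.36 and DUT 0.32 (3.61% of genes), and again 0 lay at -0.3 or below (1.11% of genes). The difference between these lists was not tested.

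Genes whose shares were most like the summed share of the 7, over 76 cells and among 2803 other genes, were PPP6R3, a phosphatase regulatory subunit (rho 0.49), WDR1, an actin disassembly factor (0.46), PYGL, glycogen phosphorylase (0.46), MCM7 (0.45) and USP1, a deubiquitinase of DNA repair (0.44). At the other end stood TMEM256 (-0.46) and the ribosomal protein gene RPS27 (-0.43) with RPL39P3 (-0.38). These are the extremes of many values, 99% of which were under 0.36. PYGL fell to 0.16 when cells were thinned, MCM7 stood at 0.36 and USP1 at 0.33, while PPP6R3 and WDR1 were then too sparse to be included. With spike-in scaling RPS27 turned to 0.48 and RPL39P3 to 0.32. At least 0.3 was reached by 2.75% of genes.

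For 6 of the members the most alike genes were U2AF1 for RRM1 (rho 0.51), ZFR for RRM2 (0.45), PHB2 for TYMS (0.46), PPP6R3 for DUT (0.52), CLSPN, a replication checkpoint adaptor, for DTYMK (0.47) and PSMD13 for DCTPP1 (0.42). CLSPN is a gene of the S phase list. Thinned, U2AF1 was at 0.44 and PHB2 at 0.35.

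In the wider nucleotide pathway the purine genes took the largest summed share of the 5 lists, 0.287% ± 0.0639. Of 13 genes of deoxynucleotide salvage and turnover all had a UMI, but only 5 reached a mean of 1 per cell: DNPH1, a deoxynucleoside monophosphate hydrolase (5.93 ± 4.25 UMIs), mitochondrial deoxyguanosine kinase DGUOK (4.33 ± 3.71), ITPA (1.78 ± 2.10), which clears inosine triphosphates, and NUDT1 and NT5C. The deoxycytidine genes DCK and DCTD gave 26 UMIs each and the dNTP hydrolase SAMHD1 gave 24. Among nucleotide kinases GUK1 gave 2.80 ± 2.70 UMIs and NME1 1.89 ± 2.05. NME1 may share reads with a near-identical neighbour and is uncertain, and 2 further kinases of the list were not analysed here. A joint row, NME1-NME2, lay outside the list. It had a mean of 25.1 UMIs and a dispersion of 2.87, above the highest spike-in at 2.20.

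The folate genes that feed TYMS were led by MTHFD2 (3.49 ± 2.44 UMIs), MTHFD1 (2.87 ± 2.65) and GGH (2.71 ± 2.71). Of the pyrimidine synthesis genes, CTPS1 gave 2.49 ± 2.79 UMIs, UMPS 2.33 ± 1.96 and CAD, which starts the pathway, 0.526 ± 0.901. Purine synthesis and salvage gave the most, with APRT at 17.8 ± 8.59, PAICS at 10.2 ± 6.41 and HPRT1 at 7.29 ± 5.15 UMIs. All genes of these 3 lists had a UMI. Above the highest spike-in dispersion lay 2 of 5 salvage genes (DGUOK and NT5C), 0 of 4 kinases, 0 of 5 folate, 0 of 2 pyrimidine and 2 of 12 purine genes (IMPDH2 and GMPS), beside 21.6% of all genes.

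**Figure D5:**
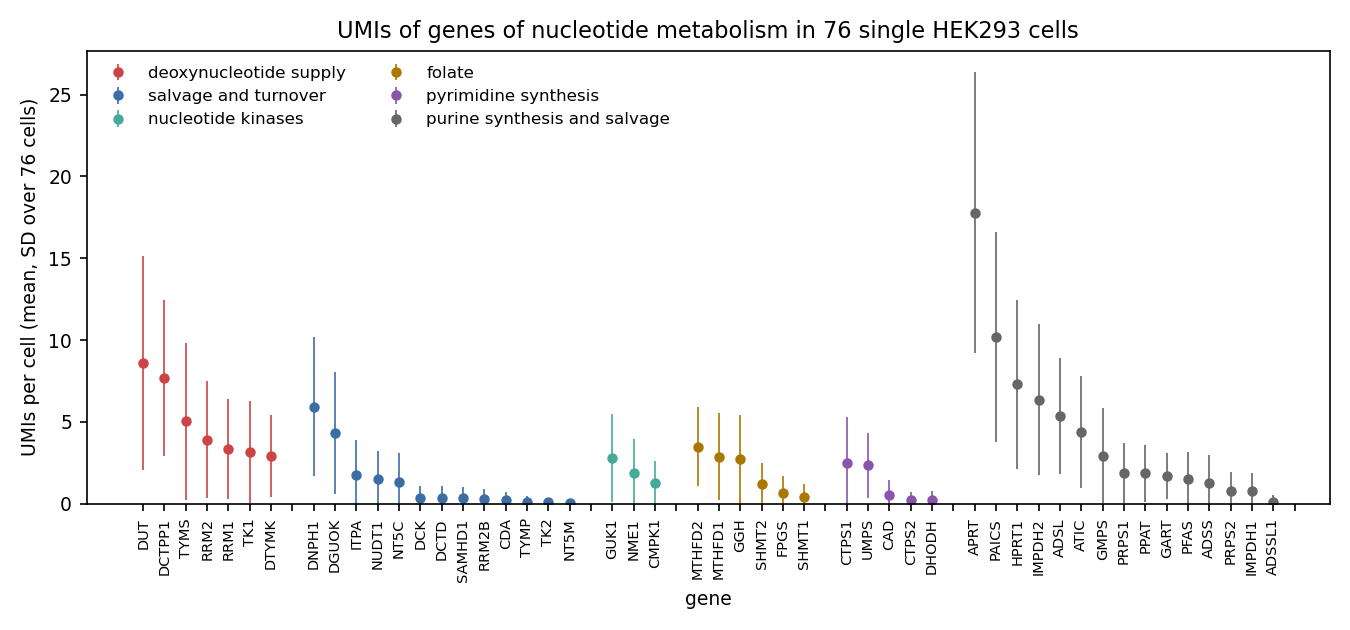
Mean UMIs per cell (points, linear axis) of genes of nucleotide metabolism by list (not all listed genes are shown), with bars of 1 SD over 76 cells, drawn down to 0 at most. DUT and DCTPP1, at 8.59 and 7.68, stand above all salvage, kinase, folate and pyrimidine genes shown, and the purine genes APRT and PAICS stand above them, at 17.8 and 10.2.

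Near-identical copies could take or add UMIs. The pseudogenes RRM2P2 and DUTP7 gave 1 UMI each, and ENOSF1, which overlaps TYMS on the opposite strand, gave 40 UMIs in 24 cells. How the counting treated strand and reads with several matches is not given in the sources used here, so values of RRM2, DUT and TYMS carry that uncertainty.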

How the data were processed

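The authors deposited 1 table of whole-number UMI counts per gene and cell, not normalized. Tools listed in the submitters' processing notes were STAR 2.4.0a and cutadapt 1.2.1, with hg19 (GRCh37) as genome. The sources used here give no UMI counter, annotation or cell filter. A row that repeats column numbers (0.197% of all values) was left out, which left 17513 gene and 80 spike-in rows. Columns were matched to cells by run name and final number, and 0 pairs of cells were identical.

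Shares are percent of endogenous UMIs. Depth was 7305 to 43392 UMIs per cell, and intervals (exact Clopper-Pearson, 95%) cover counting error only. Dispersions and Spearman correlations used genes with a mean of at least 1 UMI. Thinning was without replacement to 10940 UMIs, leaving out 5 cells with less than the median divided by 2. Python 3.11.15, numpy 2.4.6, pandas 2.3.3 and scipy 1.17.1 were used, and the code was tested on simulated data.

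Members and lists were chosen with earlier results of these data known. The genes named are all members, the 3 most abundant of each other list (with others added after their values were seen), the 5 highest and 3 lowest in correlation with the summed members, and the highest for each member, of which some are not reported here. Promoters were matched by symbol for 7 of 7 genes.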

Additional observations from a re-analysis of the deposited data

How the results depend on the processing

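Of 34 alternatives for the main values, 26 moved them by less than the spread or by at most 1.5 times, among them all 3 for the RRM2 share of subunit UMIs (53.2% to 53.9%). With ribosomal protein and mitochondrial genes left out of the totals, the members' summed share was 0.233% in place of 0.151%, by the smaller denominator. At 2 UMIs the median member was detected in 72.4% of cells in place of 86.8%. Scaled by spike-in UMIs, 6 members lay above the highest spike-in dispersion in place of 3 (46.8% of all genes did, in place of 21.6%), 7 passed rho 0.3 with the S phase share, 0 lay at or below -0.3 with the G2 and M phase share, DCTPP1 turned from -0.39 to 0.0922 there, and the median pair rho was 0.31, with 0.18 over all gene pairs. Against the median spike-in dispersion 6 members passed (71.1% of all genes did), and with cells thinned 0. The cause was not tested. Of 174 values for single members under the alternatives, 140 were counted as unmoved, 33 as moved and 1 as reversed, which is the DCTPP1 value given. A dispersion counted as moved only on changing side of the limit, so TYMS at 4.21 with spike-in scaling (2.35 before) did not. A rho that crossed 0.3 could count as unmoved, as DUT did at 0.26 with the ribosomal protein share regressed out (0.32 before). The 7 genes gave 6 to 105 UMIs per cell, which limits every per-cell statement.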

Other observations

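Among 12 purine genes with a mean of at least 1 UMI, 3 reached a rho of 0.3 with the S phase share, where 4.74% of all genes did: ADSS, of AMP synthesis (0.42), HPRT1, the hypoxanthine salvage enzyme (0.32), and GART, of early ring assembly (0.32). None of the 16 salvage, kinase, folate and pyrimidine genes of that abundance did, and the nearest were NUDT1, which clears oxidised purine nucleotides (0.29), and MTHFD1 (0.26). These lists were counted and not tested.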
